A study of Mus musculus with 12 samples.

Results

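The proteasome genes of the mouse liver were taken from whole-liver RNA sequencing of wild type and Lcn2 null mice that had received mineral oil or carbon tetrachloride (CCl4), a solvent that damages hepatocytes and leads to fibrosis on repeated dosing. Members were all genes whose symbol starts with Psm followed by a letter from a to g and a digit, leaving out the 3 immunoproteasome subunits Psmb8, Psmb9 and Psmb10 and all entries named as pseudogenes. This gave 47 of the 16292 genes with a value, and all 47 were present in each of the 4 deposited comparison tables. They are 8 genes of the alpha ring and 7 of the beta ring of the core, 6 ATPases and 3 other subunits of the base, 8 subunits of the lid, 7 assembly chaperones, 5 activators, 1 inhibitor and 2 genes that are no part of the proteasome. Those 2, Psmc3ip and Psme3ip1, carry such symbols because their proteins bind Psmc3 and Psme3.

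The 4 groups of 3 libraries each were wild type on oil, wild type on CCl4, Lcn2 null on oil and Lcn2 null on CCl4. All mice were female C57BL/6 and 8 weeks old at the start. CCl4 was given in mineral oil at 0.8 ml per kg body weight into the peritoneum, 2 times per week for 8 weeks, the control mice received the oil alone, and livers were taken 48 h after the last injection. The null mice lack Lcn2, the gene of lipocalin 2, in the whole body, and no group went without injections, so every comparison with oil is one with a repeatedly injected animal. Per the labels the libraries were made from polyadenylated RNA with a kit for 3′ ends, and they held between 7582962 and 14591487 reads in genes. Nothing in the labels beyond the replicate number says how the 3 libraries of a group relate, so the p-values measure the spread between these libraries. Lcn2 stood at 345 to 1045 CPM in the 6 wild type libraries and at 3.44 to 16.7 CPM in the 6 null libraries, matching the labels. Liver identity was plain in all groups, with 6 hepatocyte genes (albumin among them) summing to between 55854 and 97148 CPM in each library.

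The proteasome destroys proteins that carry chains of ubiquitin. Its core is a barrel of stacked rings, in which the alpha rings form the gates and the beta rings hold the protein-cutting sites of Psmb5, Psmb6 and Psmb7. A regulatory particle, made of a base with a ring of ATPases and a lid, binds the ubiquitin chain, removes it and threads the unfolded protein into the core. Dedicated chaperones build the rings and the base and leave the finished particle. Other caps, the activators of the Psme family, open the gate without recognising ubiquitin. In liver the proteasome degrades damaged, short-lived and surplus enzymes, and its genes are transcribed everywhere in the body.

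Levels are given in CPM, the share of a library's reads that fall in a gene, scaled to the same total in every library. The 47 genes together took 3771, 4000 and 4056 CPM in the wild type oil libraries and 3814, 3849 and 3858 CPM in the null oil libraries. They took 4202, 4406 and 4448 CPM in the wild type CCl4 libraries and 4344, 4428 and 4626 CPM in the null CCl4 libraries. Every CCl4 library was above every oil library, so proteasome transcripts made up 0.435% of the reads on CCl4 against 0.394% on oil in wild type livers, and 0.447% against 0.384% in null livers.

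That gain in read share was part of a shift of the whole table. The 20 most abundant genes of a library took 27.5 to 29.2% of the reads on oil and 23.5 to 26.2% on CCl4. The median gene was 0.27 higher on the log2 scale on CCl4 in wild type and 0.35 higher in null livers. When the libraries were rescaled by TMM factors (trimmed mean of M values, a scaling that sets the bulk of genes level between libraries, here 0.859 to 0.921 on oil and 1.07 to 1.19 on CCl4) those medians were 0.02 and 0.03. The median of the proteasome genes lay below that of all genes on either scale, and its sign against 0 turned with TMM scaling. Their own median was 0.19 in wild type and 0.27 in null livers in CPM, and -0.13 and -0.14 after TMM scaling. Each CCl4 change of a member given here in CPM is therefore one of read share, and its value after TMM scaling follows it.

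In wild type livers, 5 of the 47 genes rose on CCl4 and none fell, by an adjusted p of at most 0.05 (limma on log2(CPM + 1), Benjamini-Hochberg over all genes of the table) with a log2 change beyond 0.56. They were Psmd13 of the lid, the chaperones Psmg1 and Psmg2, the activator Psme3, and Psmc3ip, whose product acts in homologous recombination. This was 10.6% of the members, where 18.5% of all 15841 genes tested rose and 3.18% fell. In null livers the same 5 and Psmd8 of the lid rose and none fell, 12.8% of the members, where 29.6% of 15645 genes rose and 4.51% fell. The shares of risers among the members lay under the share among all genes in both genotypes. With no fold threshold 19.1% of the members and 25% of all genes were higher in wild type, but 40.4% of the members and 37.5% of all genes in null livers. Of the 45 proteasome genes proper, 4 rose in wild type and 5 in null livers. After TMM scaling 0 members rose in either genotype and 1, Psma5, fell in wild type livers, where 7.54% of all genes rose and 6.84% fell in wild type and 12.7% rose and 10.6% fell in null livers. By edgeR and by DESeq2 on the recovered reads 1 member rose (Psmc3ip) and 1 fell (Psma5) in wild type livers and 0 changed in null livers, where edgeR put 3 above and 19 below 0 with an unadjusted p under 0.05. At an unadjusted p under 0.05 after TMM scaling, 3 members were higher and 15 lower in wild type, and 3 higher and 19 lower in null livers. The share of all genes at that level was not taken by edgeR or after TMM scaling. These unadjusted counts therefore do not show a fall particular to the members. Without wild type oil replicate 3 the wild type count was 3, since Psmg1, Psmg2 and Psme3 came to 0.50, 0.55 and 0.55 on the log2 scale and missed the fold threshold while Psmd1 passed it.

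**Figure D1:**
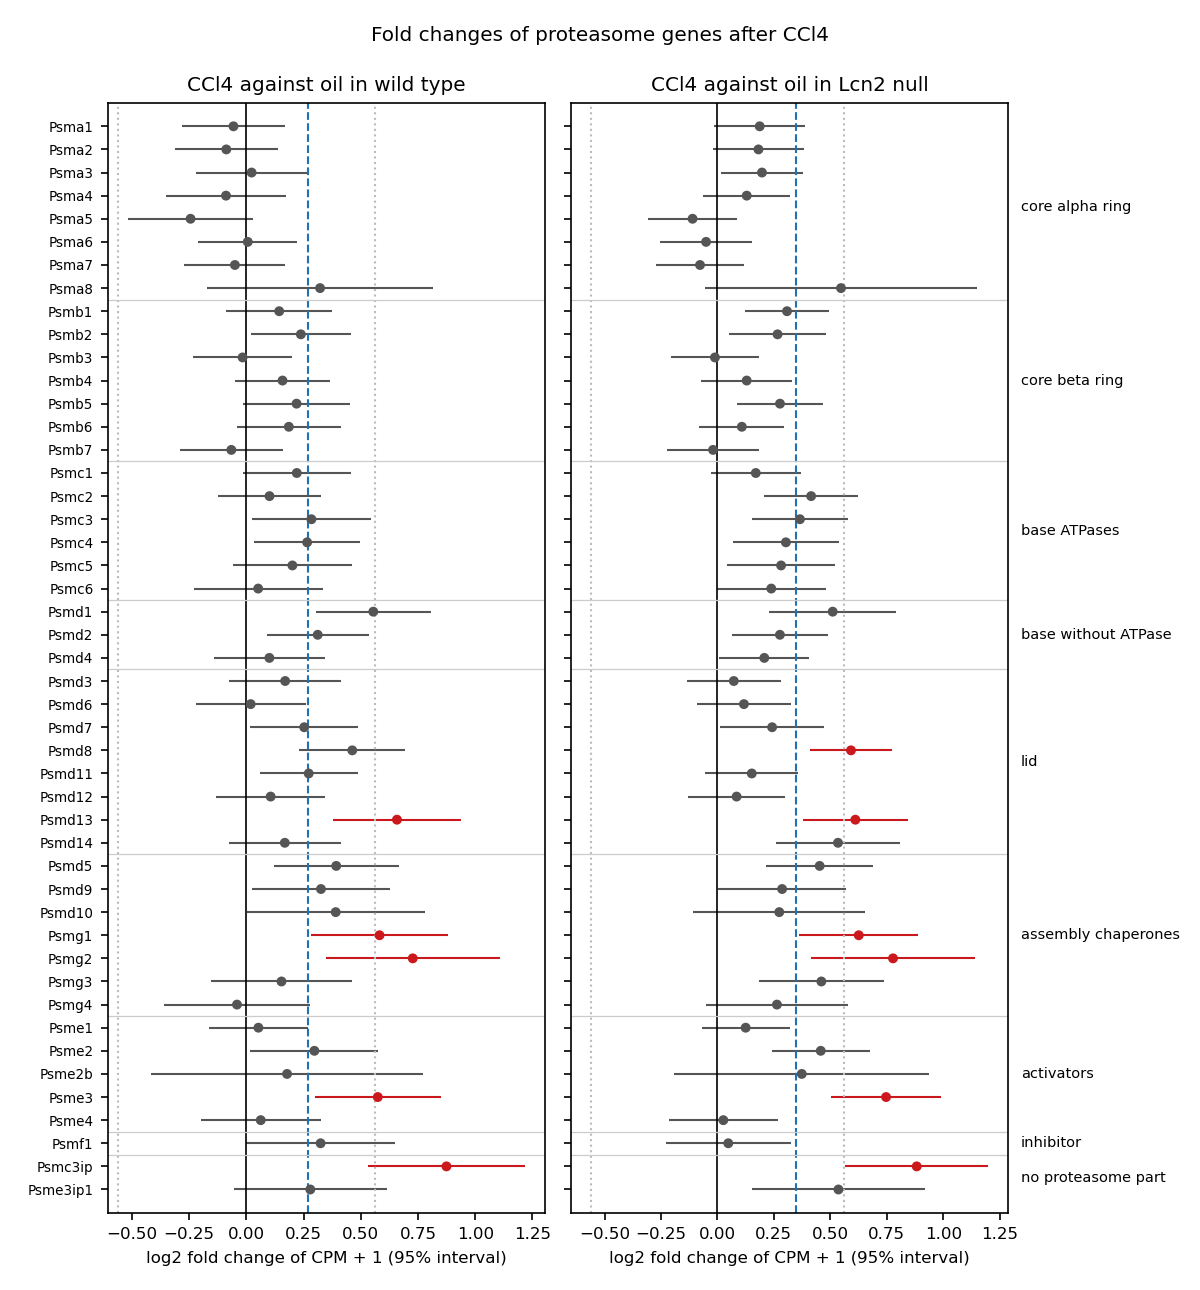
Log2 fold change of CPM + 1 on CCl4 against oil for each of the 47 genes, grouped by part of the proteasome, in wild type (left) and Lcn2 null livers (right). Points are estimates and bars 95% intervals (3 against 3 libraries), red marks genes past both thresholds, the dotted lines stand at 0.56 either side of 0 and the dashed blue line is the median of all genes (0.27 and 0.35). Most of the core alpha ring lies left of the dashed line and the red points are in the lid, the chaperones, the activators and Psmc3ip.

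The changes were narrow. Among the 46 members with a mean of at least 10 CPM, 89.1% lay within 0.56 of 0 in wild type and 87.0% in null livers, against 73.5% and 61.4% of all genes at that level. Their interquartile range was 0.26 in wild type and 0.32 in null livers, against 0.49 and 0.64 for all such genes. Of the 47 members, 17 lay above the median of all genes in wild type and 16 in null livers, so that 30 and 31 lay below it. The 3 CCl4 libraries were all above the 3 oil libraries for 23 members in wild type and 28 in null livers, and all below for 0 and 1. Among all genes 37.6% were wholly above in wild type and 45.3% in null livers, and 6.82% and 8.53% wholly below. In CPM the share wholly above was thus larger among the members than among all genes in both genotypes. The share wholly below was smaller.

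The 7 ubiquitous alpha subunits gate the core. The ring's median log2 change was -0.05 in wild type and 0.16 in null livers, and -0.38 and -0.26 after TMM scaling, and 0 of its 8 genes passed the test in either direction in CPM. Psma5 had the lowest value of all members in both genotypes. It stood at 113, 99.0 and 80.9 CPM in the wild type oil libraries and at 81.9, 88.1 and 74.9 CPM on CCl4. In null livers it was at 83.4, 85.2 and 88.1 CPM on oil and 80.7, 81.2 and 75.8 CPM on CCl4. The wild type groups overlapped, through oil replicate 3, and the null groups did not. The log2 change of Psma5 was -0.24 ± 0.13 (SE, adjusted p = 0.17, limma) in wild type and -0.11 ± 0.09 (adjusted p = 0.35) in null livers, and after TMM scaling -0.57 (adjusted p = 0.0056) and -0.53 (adjusted p = 0.00079), the second of which was inside the fold threshold. Psma3 had the clearest change of the ring in null livers by its test statistic, 0.20 ± 0.08 (adjusted p = 0.075) in CPM and -0.22 (adjusted p = 0.074) after TMM scaling. Psma8, the testis form of an alpha subunit, was at 0.14 to 1.71 CPM in all libraries, where 3 reads are worth 0.206 to 0.396 CPM, so no change in it could be read at this depth.

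The beta ring had a median log2 change of 0.16 in wild type and 0.13 in null livers, and -0.17 and -0.29 after TMM scaling, and 0 of its 7 genes passed both thresholds. The 3 subunits that cut proteins were all below 0 in both genotypes after TMM scaling. Psmb5, which carries the chymotrypsin-like site, was at 125, 132 and 142 CPM on oil and 170, 157 and 139 CPM on CCl4 in wild type livers. The null libraries were at 123, 139 and 133 CPM on oil and at 163, 152 and 164 CPM on CCl4. The null groups were apart, while wild type CCl4 replicate 3 lay below the highest oil library. Its log2 change was 0.22 ± 0.11 (adjusted p = 0.15) in wild type and 0.28 ± 0.09 (adjusted p = 0.023) in null livers, inside the fold threshold in both, and -0.11 and -0.14 after TMM scaling.

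Psmb6, with the caspase-like site, was at 123, 134 and 116 CPM on oil and 145, 151 and 130 CPM on CCl4 in wild type, and at 134, 131 and 128 CPM on oil and 138, 135 and 151 CPM on CCl4 in null livers. It was higher in every null CCl4 library than in any null oil library, by 0.11 on the log2 scale (95% interval -0.08 to 0.30), and the wild type groups overlapped, at 0.19. After TMM scaling Psmb6 was at -0.14 (adjusted p = 0.42) in wild type and at -0.31 (adjusted p = 0.021) in null livers, the opposite sign. Psmb7, with the trypsin-like site, was at 156, 146 and 133 CPM on oil and 129, 143 and 144 CPM on CCl4 in wild type. Without Lcn2 it was at 128, 132 and 139 CPM on oil and 145, 126 and 123 CPM on CCl4. The groups of Psmb7 overlapped in both genotypes, with log2 changes of -0.07 (95% interval -0.29 to 0.16) and -0.02 (-0.22 to 0.19) in CPM. After TMM scaling it was at -0.39 (adjusted p = 0.024) and -0.44 (adjusted p = 0.0039), inside the fold threshold. Of the subunits without a cutting site, Psmb2 led in wild type at 0.24 ± 0.10 (adjusted p = 0.095) and Psmb1 in null livers at 0.31 ± 0.09 (adjusted p = 0.012), and after TMM scaling these were at -0.09 and -0.11.

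In the base, all 6 ATPases, the motor that unfolds the substrate, were above 0 in both genotypes in CPM and all 6 were below 0 in both after TMM scaling. Their median was 0.21 in wild type and 0.29 in null livers in CPM and -0.11 and -0.12 after TMM scaling. None passed the fold threshold. Psmc4 had the lowest p in wild type (0.27 ± 0.11, adjusted p = 0.078) and Psmc2 in null livers (0.41 ± 0.10, adjusted p = 0.0041), and after TMM scaling these were at -0.06 and -0.00. Psmc2 was at 69.1, 75.7 and 82.2 CPM on oil and 99.7, 100 and 103 CPM on CCl4 in null livers, and at 86.8, 85.3 and 76.1 against 86.2, 89.6 and 90.1 CPM in wild type. In CPM the null groups were apart and the wild type groups overlapped.

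Of the other base subunits, Psmd1, a scaffold of the base, was just inside the fold threshold in both genotypes. It was at 41.9, 40.5 and 43.6 CPM on oil and 56.8, 68.6 and 61.7 CPM on CCl4 in wild type. Null livers had it at 56.2, 42.8 and 44.1 CPM on oil and 68.4, 75.9 and 60.3 CPM on CCl4. Each CCl4 library was above each oil library of its genotype. The log2 change was 0.55 ± 0.12 (adjusted p = 0.0030) in wild type and 0.51 ± 0.13 (adjusted p = 0.0069) in null livers. After TMM scaling it was 0.23 (adjusted p = 0.24) and 0.10 (adjusted p = 0.61). Psmd2, the other large scaffold, was at 0.31 ± 0.10 and 0.28 ± 0.10 (-0.02 and -0.14 after TMM scaling), and Psmd4, a ubiquitin receptor, at 0.10 ± 0.11 and 0.21 ± 0.09 (-0.23 and -0.21 after TMM scaling).

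The lid held the member with the largest change among the subunits of the finished particle. Psmd13 was at 36.8, 32.0 and 42.4 CPM on oil and 63.5, 54.7 and 58.2 CPM on CCl4 in wild type. In null livers it was at 37.2, 43.3 and 43.6 CPM on oil and 63.4, 61.4 and 65.8 CPM on CCl4. The lowest CCl4 library of each genotype was above its highest oil library by more than 10 CPM. The fold change was 1.58 in wild type (log2 0.66 ± 0.13, adjusted p = 0.0019) and 1.53 in null livers (0.61 ± 0.11, adjusted p = 0.00062), and the log2 values after TMM scaling were 0.33 and 0.20 with adjusted p of 0.086 and 0.21. The gene lies on chromosome 7 from 140881968 to 140898643 (GRCm38, plus strand) and overlaps Sirt3 on the other strand, so reads from both could mix if strand was not used in counting.

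Psmd8, which is needed to join the lid to the base, was at 103, 107 and 101 CPM on oil and 163, 135 and 135 CPM on CCl4 in wild type. The null libraries were at 101, 102 and 105 CPM on oil and 157, 151 and 157 CPM on CCl4. No library of either genotype crossed over. The log2 change was 0.46 ± 0.11 (adjusted p = 0.0058) in wild type and 0.59 ± 0.08 (adjusted p = 0.00014) in null livers, the second past the fold threshold. After TMM scaling it was 0.14 (adjusted p = 0.41) and 0.17 (adjusted p = 0.16). Psmd14, the enzyme that cuts the ubiquitin chain off the substrate, was at 56.8, 57.7 and 48.7 CPM on oil and 62.7, 60.3 and 60.2 CPM on CCl4 in wild type. Without Lcn2 it was at 37.0, 50.9 and 50.1 CPM on oil and 66.6, 66.8 and 65.5 CPM on CCl4. The log2 change was 0.17 ± 0.11 (adjusted p = 0.29) in wild type and 0.53 ± 0.13 (adjusted p = 0.0047) in null livers, and -0.16 and 0.12 after TMM scaling. The remaining 5 lid genes ran from 0.02 to 0.27 in wild type and from 0.07 to 0.24 in null livers, and after TMM scaling from -0.31 to -0.06 and from -0.34 to -0.17, with the median of the whole lid at 0.21 and 0.20 in CPM and -0.11 and -0.22 after TMM scaling.

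The assembly chaperones had the highest median of the parts with more than 3 genes, 0.39 in wild type and 0.45 in null livers in CPM and 0.07 and 0.04 after TMM scaling. Psmg1 and Psmg2 form the pair that starts the alpha ring. Psmg1 was at 25.5, 23.8 and 20.8 CPM on oil and 36.2, 38.4 and 31.7 CPM on CCl4 in wild type. Null livers had it at 24.4, 23.5 and 21.2 CPM on oil and 35.7, 33.9 and 38.5 CPM on CCl4. The log2 change was 0.58 ± 0.14 (adjusted p = 0.0064) in wild type and 0.63 ± 0.12 (adjusted p = 0.0013) in null livers. After TMM scaling it was 0.26 (adjusted p = 0.20) and 0.22 (adjusted p = 0.21).

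Its partner Psmg2 was at 14.6, 18.4 and 11.1 CPM on oil and 23.4, 25.7 and 24.4 CPM on CCl4 in wild type. In null livers it was at 13.8, 17.9 and 17.1 CPM on oil and 25.98, 24.7 and 36.0 CPM on CCl4. Both genotypes kept oil and CCl4 libraries apart. The fold change was 1.66 in wild type (log2 0.73 ± 0.18, adjusted p = 0.0074) and 1.71 in null livers (0.78 ± 0.17, adjusted p = 0.0026). After TMM scaling the log2 changes were 0.41 (adjusted p = 0.13) and 0.38 (adjusted p = 0.13). The other pair for the core, Psmg3 and Psmg4, was at 0.15 and -0.04 in wild type and at 0.46 (adjusted p = 0.011) and 0.26 in null livers, inside the fold threshold, and after TMM scaling at -0.16 and -0.36 in wild type and at 0.06 and -0.14 in null livers. The 3 base chaperones Psmd5, Psmd9 and Psmd10 were at 0.39, 0.33 and 0.39 in wild type and at 0.45, 0.29 and 0.27 in null livers, of which only Psmd5 had an adjusted p under 0.05 (0.032 and 0.0051). After TMM scaling they were at 0.07, 0.01 and 0.08 in wild type and at 0.04, -0.12 and -0.12 in null livers. On the opposite strand Psmd9 overlaps Hpd and Psmd5 overlaps Cutal. Their reads could mix too if strand was not used in counting.

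Among the activators, Psme3 alone passed both thresholds in CPM. It forms a nuclear cap linked to cell growth. It was at 27.6, 29.0 and 26.7 CPM on oil and 45.9, 42.4 and 37.5 CPM on CCl4 in wild type. The null libraries were at 25.9, 28.6 and 30.5 CPM on oil and 49.8, 48.4 and 46.1 CPM on CCl4. The fold change was 1.49 in wild type (log2 0.57 ± 0.13, adjusted p = 0.0043) and 1.68 in null livers (0.75 ± 0.11, adjusted p = 0.00023). After TMM scaling the log2 changes were 0.25 (adjusted p = 0.18) and 0.34 (adjusted p = 0.043).

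Psme1 and Psme2, which form the interferon-inducible cap used in antigen processing and lie 5912 bases apart on chromosome 14, were uneven. Psme1 was at 123, 122 and 127 CPM on oil and 121, 132 and 134 CPM on CCl4 in wild type, and at 106, 115 and 117 CPM on oil and 128, 116 and 125 CPM on CCl4 in null livers. Its log2 change was 0.05 (95% interval -0.16 to 0.27) and 0.12 (-0.07 to 0.32), and after TMM scaling -0.27 (adjusted p = 0.10) and -0.29 (adjusted p = 0.033). Psme2 was at 123, 125 and 88.7 CPM on oil and 128, 145 and 136 CPM on CCl4 in wild type, and at 93.3, 96.1 and 90.1 CPM on oil and 113, 138 and 135 CPM on CCl4 in null livers. Its log2 change was 0.30 ± 0.13 (adjusted p = 0.10) and 0.46 ± 0.10 (adjusted p = 0.0028), and -0.03 and 0.04 after TMM scaling. Reads of Psme2 may be divided with its near copy Psme2b, at 6.69 to 22.0 CPM, so both are uncertain. Psme4, a large nuclear cap, was at 65.2, 50.4 and 60.1 CPM on oil and 62.8, 62.8 and 57.2 CPM on CCl4 in wild type, and at 69.1, 56.5 and 57.1 CPM on oil and 65.3, 58.0 and 62.3 CPM on CCl4 in null livers, with log2 changes of 0.06 and 0.03, and of -0.26 and -0.39 (adjusted p = 0.15 and 0.018) after TMM scaling. The inhibitor Psmf1 was at 0.32 ± 0.15 (adjusted p = 0.12) in wild type and 0.05 ± 0.13 in null livers, and at 0.00 and -0.36 after TMM scaling.

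Psmc3ip, no proteasome part, had the largest change of all 47 genes. It was at 19.6, 22.9 and 16.5 CPM on oil and 40.0, 40.2 and 30.3 CPM on CCl4 in wild type. Without Lcn2 it was at 18.7, 22.8 and 16.9 CPM on oil and 38.2, 39.8 and 31.9 CPM on CCl4. The fold change was 1.83 and 1.84 (log2 0.87 ± 0.16 and 0.88 ± 0.15, adjusted p = 0.0011 and 0.00043), and the log2 changes after TMM scaling were 0.56, just inside the threshold, and 0.48. The gene overlaps Mlx on the opposite strand.

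**Figure D2:**
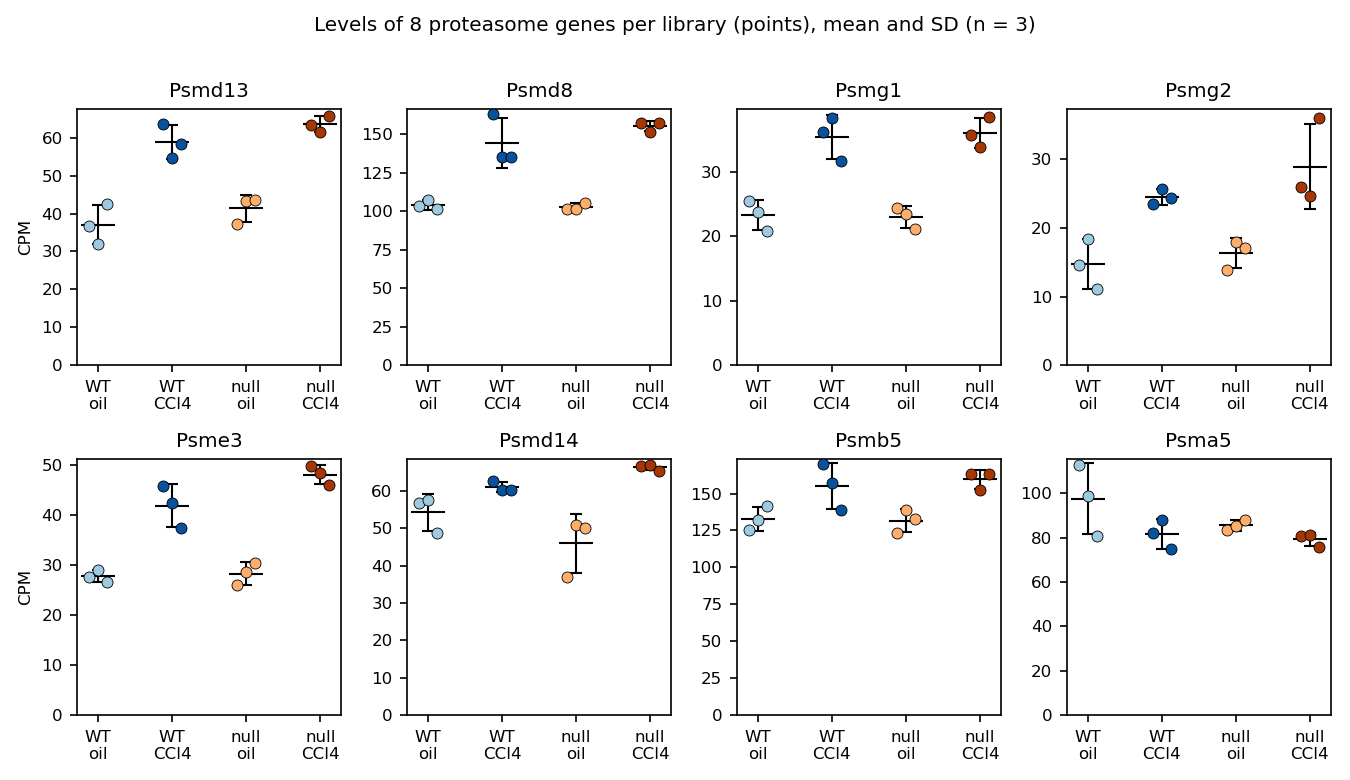
CPM of 8 proteasome genes in each library. Points are libraries, the horizontal mark is the mean and the bar the SD (n = 3). Psmd13, Psmd8, Psmg1, Psmg2 and Psme3 have no overlap between oil and CCl4 in either genotype, while the wild type groups of Psmb5 and Psma5 overlap.

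The 250 bases upstream of the RefSeq start are given for Psmd13, Psmg1, Psme3 and Psmb5 (RefSeq promoter table, GRCm38.p6, gene strand, 5′ to 3′). Psmd13, Psmg1 and Psme3 rose in both genotypes in CPM, and the catalytic subunit Psmb5 passed the call rule in neither. Capitals mark matches, on either strand, to TGACNNNGC, the core of the antioxidant response element bound by Nfe2l1 and Nfe2l2, or to CCAAT, the box bound by the factor NF-Y. The RefSeq start differs from the GENCODE gene start for Psmd13, whose window lies inside the GENCODE gene, and for Psmb5, whose window overlaps the first bases of the GENCODE gene. No base belonged to both motifs in the sequences shown. The windows are chr7:140882144-140882393 (plus) for Psmd13, chr16:95990961-95991210 (minus) for Psmg1, chr11:101315963-101316212 (plus) for Psme3 and chr14:54617996-54618245 (minus) for Psmb5.
Psmd13: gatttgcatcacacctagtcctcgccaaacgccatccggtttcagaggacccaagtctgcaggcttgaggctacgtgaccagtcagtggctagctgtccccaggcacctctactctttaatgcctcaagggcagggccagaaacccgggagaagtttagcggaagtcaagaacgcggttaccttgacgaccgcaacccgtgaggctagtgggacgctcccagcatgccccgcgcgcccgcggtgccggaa
Psmg1: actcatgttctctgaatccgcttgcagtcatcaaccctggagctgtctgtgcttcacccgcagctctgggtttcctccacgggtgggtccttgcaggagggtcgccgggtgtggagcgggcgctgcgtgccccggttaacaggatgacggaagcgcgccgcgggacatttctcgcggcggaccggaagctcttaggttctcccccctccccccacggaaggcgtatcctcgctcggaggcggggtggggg
Psme3: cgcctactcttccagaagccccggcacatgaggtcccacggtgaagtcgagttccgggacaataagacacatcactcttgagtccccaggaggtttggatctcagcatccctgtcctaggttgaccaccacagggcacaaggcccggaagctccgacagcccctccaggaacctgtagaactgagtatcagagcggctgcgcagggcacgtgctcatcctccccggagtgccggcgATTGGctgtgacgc
Psmb5: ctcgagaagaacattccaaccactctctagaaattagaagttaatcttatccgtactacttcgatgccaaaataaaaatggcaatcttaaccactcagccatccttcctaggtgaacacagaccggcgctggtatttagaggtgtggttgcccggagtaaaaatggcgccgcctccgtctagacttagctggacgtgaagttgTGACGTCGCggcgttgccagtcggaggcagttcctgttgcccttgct
The RefSeq table held 39 of the 47 genes. TGACNNNGC was found in 5 of the 39 windows (12.8%), those of Psmb5, Psmb6, Psmc6, Psmd9 and Psmd12, and in 10.1% of 27025 windows of the same length in front of all genes of the table. CCAAT was found in 13 of the 39 (33.3%) and in 34.5% of all windows. The risers Psme3 and Psmc3ip had a CCAAT match, and Psmd13, Psmd8 and Psmg1 had no match to either motif in these windows. The riser Psmg2 was not among the 39 genes.

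**Figure D3:**
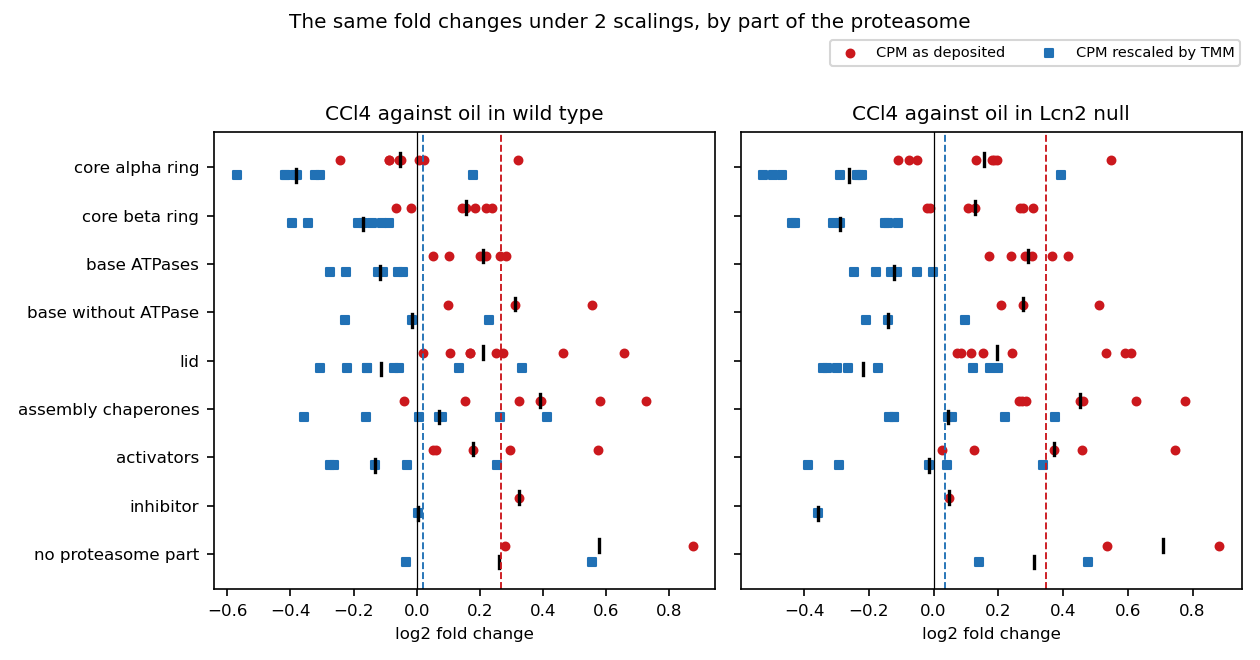
Log2 fold change on CCl4 against oil of each gene by part of the proteasome, in CPM as deposited (red circles) and after TMM scaling (blue squares), in wild type (left) and null livers (right). Black bars are medians of each part and dashed lines the medians of all genes in the same colours. Rescaling moves every point to the left, and the assembly chaperones keep a higher median than both core rings in either colour.

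Levels within a library can be set against each other with no scaling between libraries. The mean log2 level of the 7 assembly chaperones, relative to that of the 14 core genes other than Psma8, was -2.79 to -2.72 in wild type oil libraries and -2.50 to -2.34 on CCl4. Null livers ranged from -2.64 to -2.49 on oil and -2.30 to -2.21 on CCl4. The oil and CCl4 ranges were apart in both genotypes, so chaperone transcripts gained on core transcripts. The same was seen in the lid, from between -1.12 and -0.95 to between -0.86 and -0.77 in wild type and from between -0.96 and -0.88 to between -0.74 and -0.73 in null livers. The base ATPases went from between -1.01 and -0.86 to between -0.87 and -0.74 in wild type, where the ranges overlapped, and from between -0.91 and -0.80 to between -0.71 and -0.62 in null livers. Within the core, the 7 alpha genes stood at -0.14 to 0.07 relative to the 7 beta genes on oil and at -0.25 to -0.23 on CCl4 in wild type, and at -0.22 to -0.02 and -0.27 to -0.13 in null livers, where they overlapped. The base subunits without ATPase went from between -1.10 and -0.85 to between -0.80 and -0.62 in wild type and from between -0.90 and -0.80 to between -0.67 and -0.54 in null livers, apart in both. The activators were apart in null livers, from between -1.69 and -1.48 to between -1.36 and -1.29. In wild type they went from between -1.57 and -1.43 to between -1.43 and -1.22, where the ranges overlapped. The core itself lay below the typical gene, so a gain on it is not one on all genes. In CPM the median log2 change of all genes was 0.27 in wild type and 0.35 in null livers. The alpha ring was at -0.05 and 0.16, the beta ring at 0.16 and 0.13, and the lid at 0.21 and 0.20. The base ATPases were at 0.21 and 0.29, and the chaperones, above all genes, at 0.39 and 0.45. The ratios are descriptions with no test, since the parts were set with earlier results of the data known.

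**Figure D4:**
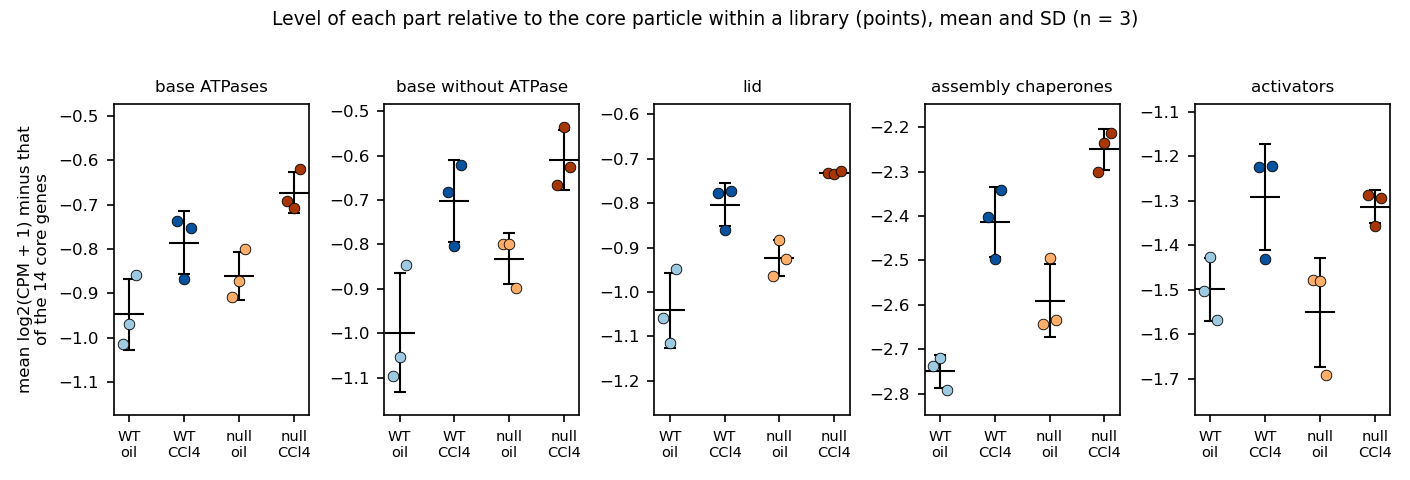
Mean log2(CPM + 1) of each part minus that of the 14 core genes within the same library (points), with mean and SD (n = 3) for the 4 groups. Panels have vertical axes of their own, of equal span. The chaperones, the lid and the base without ATPase sit higher on CCl4 than on oil in every library of both genotypes.

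Loss of Lcn2 was not accompanied by a detected change in any proteasome gene. On oil, 0 of the 47 members were higher and 0 lower in null than in wild type livers, where 1.11% of 14202 genes were higher and 3.8% lower. On CCl4, 0 were higher and 0 lower, where 0.104% of 14445 genes were higher and 0.194% lower. DESeq2 and edgeR on the recovered reads also called 0 in both comparisons. At an unadjusted p under 0.05 by limma, 1 member was higher (Psmd3, 0.22) and 1 lower (Psma1, -0.23) on oil, and 1 higher (Psmg3, 0.45) on CCl4, and edgeR gave 2 higher and 0 lower on oil at that level. Of all genes 7.22% were higher and 12.1% lower on oil by limma at that level, and 4.87% and 3.79% on CCl4. The medians of the members, -0.01 on oil and 0.04 on CCl4, lay near those of all genes at -0.03 and 0.04.

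The intervals bound how large a difference could be. On oil the 95% interval of the log2 difference lay wholly within 0.56 either side of 0 for 42 of the 47 genes, and on CCl4 for 44. For Psmb5 the interval was -0.23 to 0.20 on oil and -0.17 to 0.26 on CCl4, for Psmb6 -0.13 to 0.28 and -0.22 to 0.21, and for Psmb7 -0.34 to 0.09 and -0.30 to 0.14. Psmg3, at 20.8 to 22.6 CPM in wild type and 27.8 to 33.0 CPM in null livers on CCl4, was the largest difference on CCl4 (0.45 ± 0.13, adjusted p = 0.26), with the libraries of the groups apart. Libraries were wholly apart for 2 members above and 3 below on oil, where 9.84% and 14.3% of all genes were, and for 6 above and 0 below on CCl4, where 8.66% and 5.56% were.

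The test of whether CCl4 acted differently on the genotypes, the interaction over 12 libraries and 15210 genes, called 0 members in either direction, where 1.08% of genes were higher and 0.809% lower in their response in null livers. DESeq2 and edgeR called 0 as well, and at an unadjusted p under 0.05 by limma 2 members were higher and 0 lower, where 9.74% of all genes were higher and 5.18% lower. These were Psmd14 (0.37, 95% interval 0.01 to 0.72, adjusted p = 0.32) and Psmc2 (0.31, 0.03 to 0.59, adjusted p = 0.27). Psmd8, which passed the fold threshold in null livers and not in wild type, had a difference between the genotypes of 0.13 (-0.14 to 0.40), so its calls were not shown to differ. For 36 of the 47 genes the interval of the interaction was within 0.56 either side of 0.

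**Figure D5:**
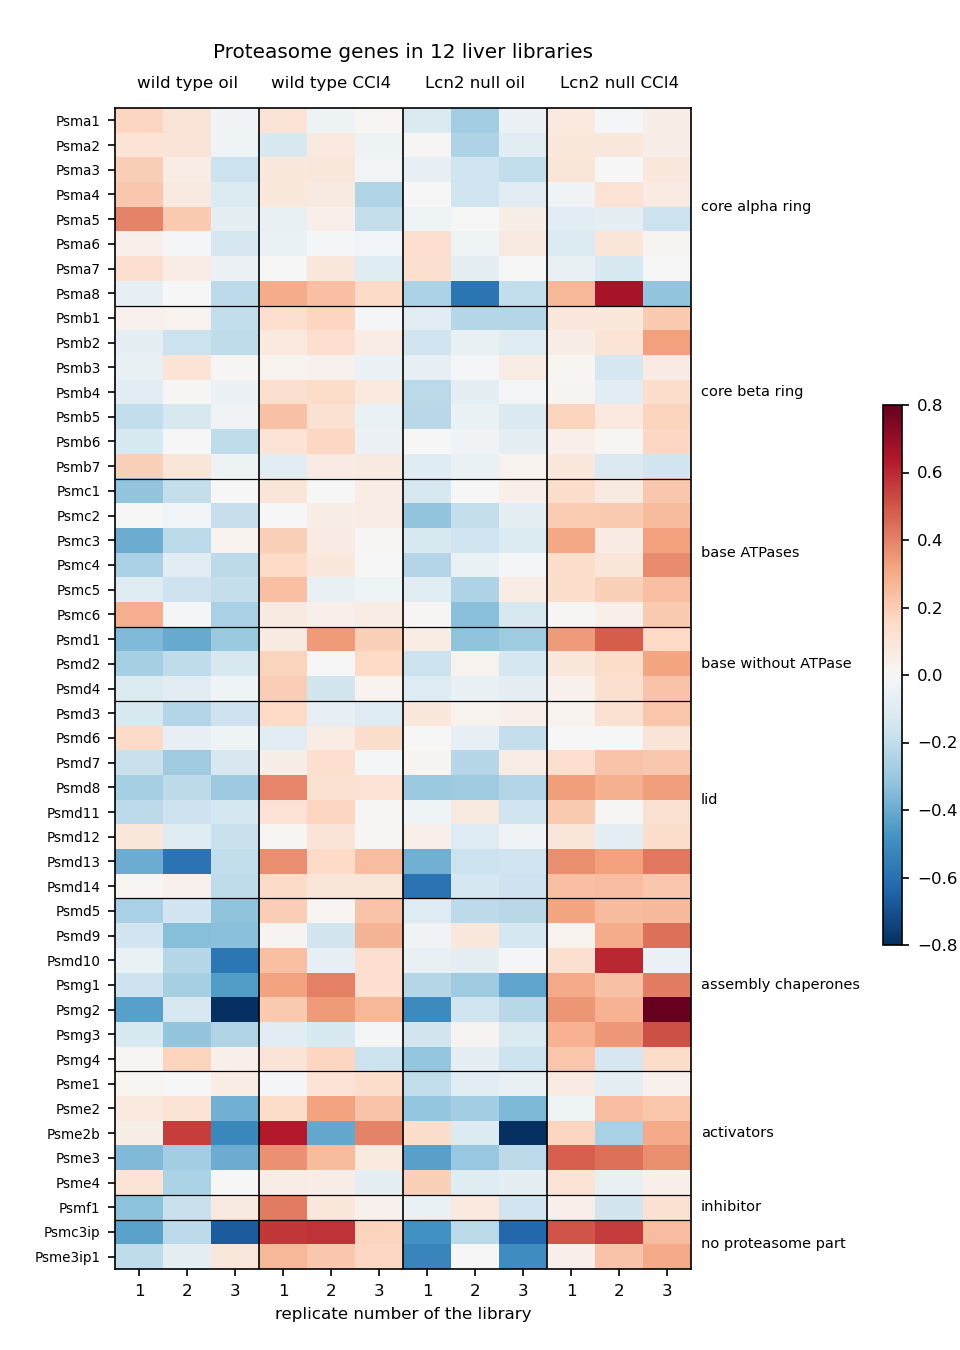
Log2(CPM + 1) of each gene minus its mean over the 12 libraries (colour, cut off at 0.8 either side of 0), genes in rows by part of the proteasome and libraries in columns by group. Psmd8, Psmd13, Psmg1, Psmg2, Psme3 and Psmc3ip are blue in the oil columns and red in the CCl4 columns of both genotypes, while the wild type columns of the alpha ring show no such step.

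Other genes of the pathway were taken in lists made with earlier results of the data known, and their counts stand against the same shares of all genes in CPM, 18.5% higher and 3.18% lower in wild type and 29.6% higher and 4.51% lower in null livers. The 3 immunoproteasome subunits, beta forms induced by interferon, had 0 calls in each of the 4 comparisons, with medians on CCl4 of -0.14 in wild type and 0.34 in null livers in CPM and -0.46 and -0.07 after TMM scaling. On oil they were at -0.24 to -0.54 in null against wild type livers. After TMM scaling Psmb10 fell on CCl4 in wild type (-0.71, adjusted p = 0.00094). Of 7 measured further parts and chaperones, 1 rose in wild type and 2 in null livers. Akirin2, which brings proteasomes into the nucleus, rose in both (0.64 and 0.87, and 0.33 and 0.47 after TMM scaling). Txnl1, a protein bound to the regulatory particle, rose in null livers (0.63, and 0.21 after TMM scaling). Pomp, the chaperone that completes the core, was at 0.01 and -0.02 (-0.32 and -0.43 after TMM scaling).

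Of 6 ubiquitin and ubiquitin-activating genes, 1 rose in wild type and 2 in null livers, Uba6 (0.69 and 1.05) in both and Rps27a (0.65, and 0.23 after TMM scaling) in null livers. Uba6, an enzyme that activates ubiquitin, also rose in null livers after TMM scaling (0.65, adjusted p = 0.020). On that scale 1 other gene of this list fell in null livers. Of 19 genes for substrate delivery and deubiquitination, 2 rose in wild type and 5 in null livers and none fell, shares below those of all genes. Uchl5, the deubiquitinase of the base, was at 21.01, 17.8 and 16.3 CPM on oil and 32.6, 31.5 and 31.2 CPM on CCl4 in wild type, and at 19.4, 16.2 and 16.6 CPM on oil and 36.9, 36.4 and 38.8 CPM on CCl4 in null livers. Its log2 change was 0.76 ± 0.14 and 1.06 ± 0.13, and 0.45 and 0.66 after TMM scaling, the second of these past both thresholds. Usp5, which takes apart free ubiquitin chains, rose by 0.72 and 0.82 (0.40 and 0.41 after TMM scaling). After TMM scaling 2 genes of this list fell in wild type, Sqstm1 (-0.58) and Ddi2 (-0.58), and 1 in null livers, Ddi2 (-0.80), the protease that activates Nfe2l1, which was at -0.25 and -0.38 in CPM.

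Of 11 regulators of proteasome genes, 3 rose in wild type, and in null livers 2 rose and 1 fell. Nfe2l2, the factor of the oxidative stress response, was at 64.6, 56.6 and 47.8 CPM on oil and 128, 96.5 and 110 CPM on CCl4 in wild type, and at 43.4, 43.8 and 48.3 CPM on oil and 121, 111 and 112 CPM on CCl4 in null livers. The gap between groups was larger than either group's spread. Its log2 change was 0.97 ± 0.14 (adjusted p = 0.00011) and 1.32 ± 0.10 (adjusted p = 6.7e-07), and 0.65 and 0.91 after TMM scaling, past both thresholds on either scale. Nfe2l1, the factor that raises proteasome genes when the particle is blocked, was at 0.06 ± 0.13 and 0.01 ± 0.11 (-0.27 and -0.40 after TMM scaling). The NF-Y subunit Nfya rose in both genotypes (0.79 and 1.10, and 0.50 and 0.74 after TMM scaling, the second still called) and Nfyc in wild type (0.81, and 0.50 after TMM scaling). After TMM scaling Mafk fell in both genotypes (-0.77 and -0.83), Stat3 in wild type (-0.61) and Mafg in null livers (-0.57). Foxo4 fell in null livers (-0.66, and -1.03 after TMM scaling), and Stat3 was lower in null than in wild type livers on oil (-0.56, adjusted p = 0.026, and -0.52 with no call after TMM scaling).

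Marker genes of several cell types moved with the treatment. Whole liver was measured, so fewer cells of a type and less RNA per cell cannot be told apart. All 6 genes of dividing cells (Mki67 and Top2a among them) rose on CCl4 in both genotypes, with summed levels of 34.0 to 56.1 CPM in the oil libraries and 320 to 487 CPM in the CCl4 libraries. Of 8 genes of stellate cells and fibroblasts 6 rose in both, with summed levels of 190 to 472 CPM on oil and 726 to 1945 CPM on CCl4. Cyp2e1, the enzyme that activates CCl4, fell by 2.79 and 3.76 on the log2 scale in CPM. The other 5 hepatocyte genes were between -0.17 and 0.64. Cps1 was called higher in wild type in CPM, while 0 hepatocyte genes were higher after TMM scaling. On oil, 6 of 8 measured neutrophil genes, 9 of 10 monocyte and macrophage genes and 7 of 8 Kupffer cell genes were lower in null than in wild type livers, as were 4 of 8 stellate and 3 of 5 bile duct genes, and on CCl4 0 of each were lower in null livers. Of all genes 3.8% were lower in null livers on oil and 0.194% on CCl4. Leukocyte genes also moved with CCl4. In null livers 9 of 10 monocyte and macrophage, 7 of 10 neutrophil and 5 of 8 Kupffer cell genes rose in CPM. There 2 Kupffer cell genes fell, and of all genes 29.6% rose and 4.51% fell. After TMM scaling 7 monocyte and macrophage, 4 neutrophil and 1 Kupffer cell genes rose and 2 Kupffer cell genes fell. Of all genes 12.7% rose and 10.6% fell on that scale. In wild type livers 3 of 10 neutrophil and 4 of 8 Kupffer cell genes fell and none of either rose. Of the monocyte and macrophage genes 2 rose and 1 fell there. These wild type counts were the same after TMM scaling. Of all genes in wild type livers 18.5% rose and 3.18% fell in CPM, and 7.54% rose and 6.84% fell after TMM scaling. The summed neutrophil genes were at 172 to 239 CPM on oil and 82.6 to 121 CPM on CCl4 in wild type, and at 25.3 to 44.8 CPM on oil and 64.3 to 120 CPM on CCl4 in null livers. Of 5 bile duct genes 3 rose in both genotypes and 1 fell in wild type. The part of these cells in the levels of the proteasome genes was not tested.

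Across the 12 libraries the 46 members with at least 10 CPM had a median pairwise correlation of 0.40, against 0.28 for all pairs of 7545 genes at that level. With group means removed the medians were 0.09 and 0.04. Within groups the 7 alpha genes had the highest median of the parts, 0.52, followed by the beta ring at 0.30, the base ATPases at 0.22, the chaperones at 0.10 and the lid at -0.00, below all genes. These correlations share the same libraries and their scaling and are given as descriptions, with n = 12 libraries.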

How the data were processed

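RNA of 12 livers (4 groups of 3 libraries) was made into libraries with a 3′ end kit, per the labels. The sources name more than one kit (rapid MACE and TruSeq Stranded) and more than one counter (Salmon and featureCounts, the latter of the Subread package), and whether strand was used is not given. Per the submitters' notes reads were trimmed with Trim Galore, aligned to mm10 with STAR and tested with DESeq2 1.30.0. The deposited values used here are CPM, scaled by the authors to the reads in genes of each library, in 4 tables, 1 per comparison. Each CPM was a whole multiple of 1 read's worth (100% of values whole within 0.01 read in every library), so reads were recovered. The tables' own fold changes and p-values, and the enrichment files, were not used.

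CPM were tested as log2(CPM + 1) with limma 3.58.1 and a variance trend on the 6 libraries of a comparison and all genes of its table, and the interaction on 12 libraries. The call rule was a Benjamini-Hochberg adjusted p no higher than 0.05 together with a log2 change beyond 0.56. Fold changes of low genes are understated by the added 1. The fits were also run on simulated data. In each comparison most genes changed 2-fold were called there, and most genes changed 1.5-fold were not. Alternatives were TMM and DESeq2 size factor scaling, edgeR 4.0.16 and DESeq2 1.42.0 on recovered reads, other thresholds and pseudocounts (0.5 and 5), a minimum mean of 10 CPM, no variance trend, 1 fit of all libraries, the replicate number as a block, leaving out Psmc3ip and Psme3ip1, and leaving out each library. Members, parts and lists were chosen with earlier results of these data known. Genes named with values were, per comparison and part, up to 4 called members by limma t or else the one with the largest, and every member called anywhere with the catalytic subunits, Psmd14 and Psme1 to Psme4 by library. Psma5, called after TMM scaling, and others given beside them were added after their values were seen. Gene positions are from GENCODE M21 (GRCm38).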

Additional observations from a re-analysis of the deposited data

How the results depend on the processing

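The scaling decided the direction of the CCl4 results. With TMM scaling 0 members were higher in either genotype and 1 was lower in wild type, and the median of the members was -0.13 in wild type and -0.14 in null livers. With DESeq2 size factors 0 were higher in either genotype and 1 was lower in wild type, with medians of -0.14 and -0.15. By edgeR and by DESeq2 on the recovered reads, 1 was higher and 1 lower in wild type and 0 were higher in null livers. In wild type, 9 members were higher with no fold threshold (25% of all genes), 3 with a fold change over 1.5 (17.5%) and 3 with a pseudocount of 5 (11%). In null livers 19 were higher with no fold threshold, 40.4% of the members against 37.5% of all genes. All genes called went from 18.5% higher and 3.18% lower to 7.54% and 6.84% with TMM in wild type, and from 29.6% and 4.51% to 12.7% and 10.6% in null livers. The members' median stayed below that of all genes under each scaling, and was above it only with a pseudocount of 5 (by 0.01 and 0.03).

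Without 1 library each, between 3 and 5 members were higher in wild type (3 without oil replicate 3) and between 6 and 8 in null livers, with medians from 0.15 to 0.22 and from 0.21 (without null CCl4 replicate 3) to 0.28. The counts of 0 in the genotype comparisons and in the interaction held under every alternative run. With the replicate number as a block, 5 members were higher in wild type and 6 in null livers, and 0 in the other comparisons. Libraries with the same number were not seen to deviate together. Correlations of deviations from group means ran from -0.12 to 0.19 (median -0.015) over 18 pairs of the same number. Over 36 pairs of unlike number they also ran from -0.12 to 0.19. A weak link between libraries of the same number could be missed in this way. Of the named members not called, 9 of 12 in wild type and 8 of 13 in null livers changed sign in at least 1 rescaled fit. Depth limits Psma8, near the level of 3 reads.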
